A study of Mus musculus with 2 samples.

Results

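The *Meis* and *Pbx* genes encode homeodomain transcription factors of the TALE class, named for an extra loop in the homeodomain. *Meis1*, *Meis2* and *Meis3* encode MEIS proteins, and *Pbx2*, *Pbx3* and *Pbx4* encode PBX proteins. The windows of these 6 genes, of 21761 protein-coding genes in all, were searched for sites occupied by DLX2 in the maxillary process. A window was the gene extent in the RefSeq annotation of GRCm38.p6 plus 100 kb on each side, and a peak belonged to the gene if it met the window by at least 1 bp. The genes were chosen by name, with earlier results of these data known.

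MEIS and PBX proteins bind DNA together and act as partners of HOX and other homeodomain proteins, which changes the sites that these partners recognise. They are best known for patterning along the body axis and for limb and craniofacial development. The maxillary process, from which most of the upper jaw develops, is largely filled by cranial neural crest cells that do not express *Hox* genes. *Meis2* is required in cranial neural crest, and loss of PBX proteins in mice disturbs fusion of the upper lip and palate.

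DLX2 CUT&Tag was performed on maxillary process cells of E12.5 wildtype C57BL/6 embryos. In this assay an antibody guides a transposase, which cuts and tags DNA near the antibody target. The 2 libraries form a single group, here replicate 1 and replicate 2, both made with the same antibody against DLX2. No genotype other than wildtype, no treatment and no control library entered, and the labels do not say whether the replicates came from separate litters or pools of embryos.

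The data were 28061 peaks in replicate 1 and 62093 in replicate 2, which met in 10921 shared regions. The study itself reported fewer peaks for each replicate and fewer peaks common to both. The counts, shares and densities given here belong to the larger deposited lists. A shared region is a stretch covered by a peak of each replicate. Where a pair of values is given without further words, replicate 1 comes first. The lowest local background under any peak was 0.387 and 1.101 fragments, a ratio of 2.84 between the deeper replicate 2 and replicate 1. Fold enrichment is the number of fragments at the summit plus 1 over the local background plus 1. Fragment numbers were recovered from the deposited fold and −log10 p, and the read totals are unknown.

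To see where DLX2 occupancy recurred, the peaks of the 6 windows were placed on each gene. The windows held 13 shared regions, and 3 of them lay inside a member gene. Of these 3, *Meis2* held 2 and *Pbx4* held 1. A further 7 lay inside other protein-coding genes, 2 lay in the lncRNA gene *C230014O12Rik* and 1 lay in no annotated gene. By gene, the *Meis3* window had 5 shared regions, *Meis2* had 3, *Pbx2* had 2, *Pbx3* had 2, *Pbx4* had 1 and *Meis1* had 0. Thus 5 of the 6 windows held a shared region, and the same was true of 60.3% of all protein-coding genes. A shared region inside the gene itself was found for 2 of the 6 genes, against 14.6% of all protein-coding genes. These shares take no account of gene length. Per 100 kb inside genes, the density of shared regions was 0.497 for the 6 genes and 0.497 for all protein-coding genes. With 6 genes, these shares are a description and were not tested. The gene table used gives extents without exons, so exon and intron were not separated.

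**Figure D1:**
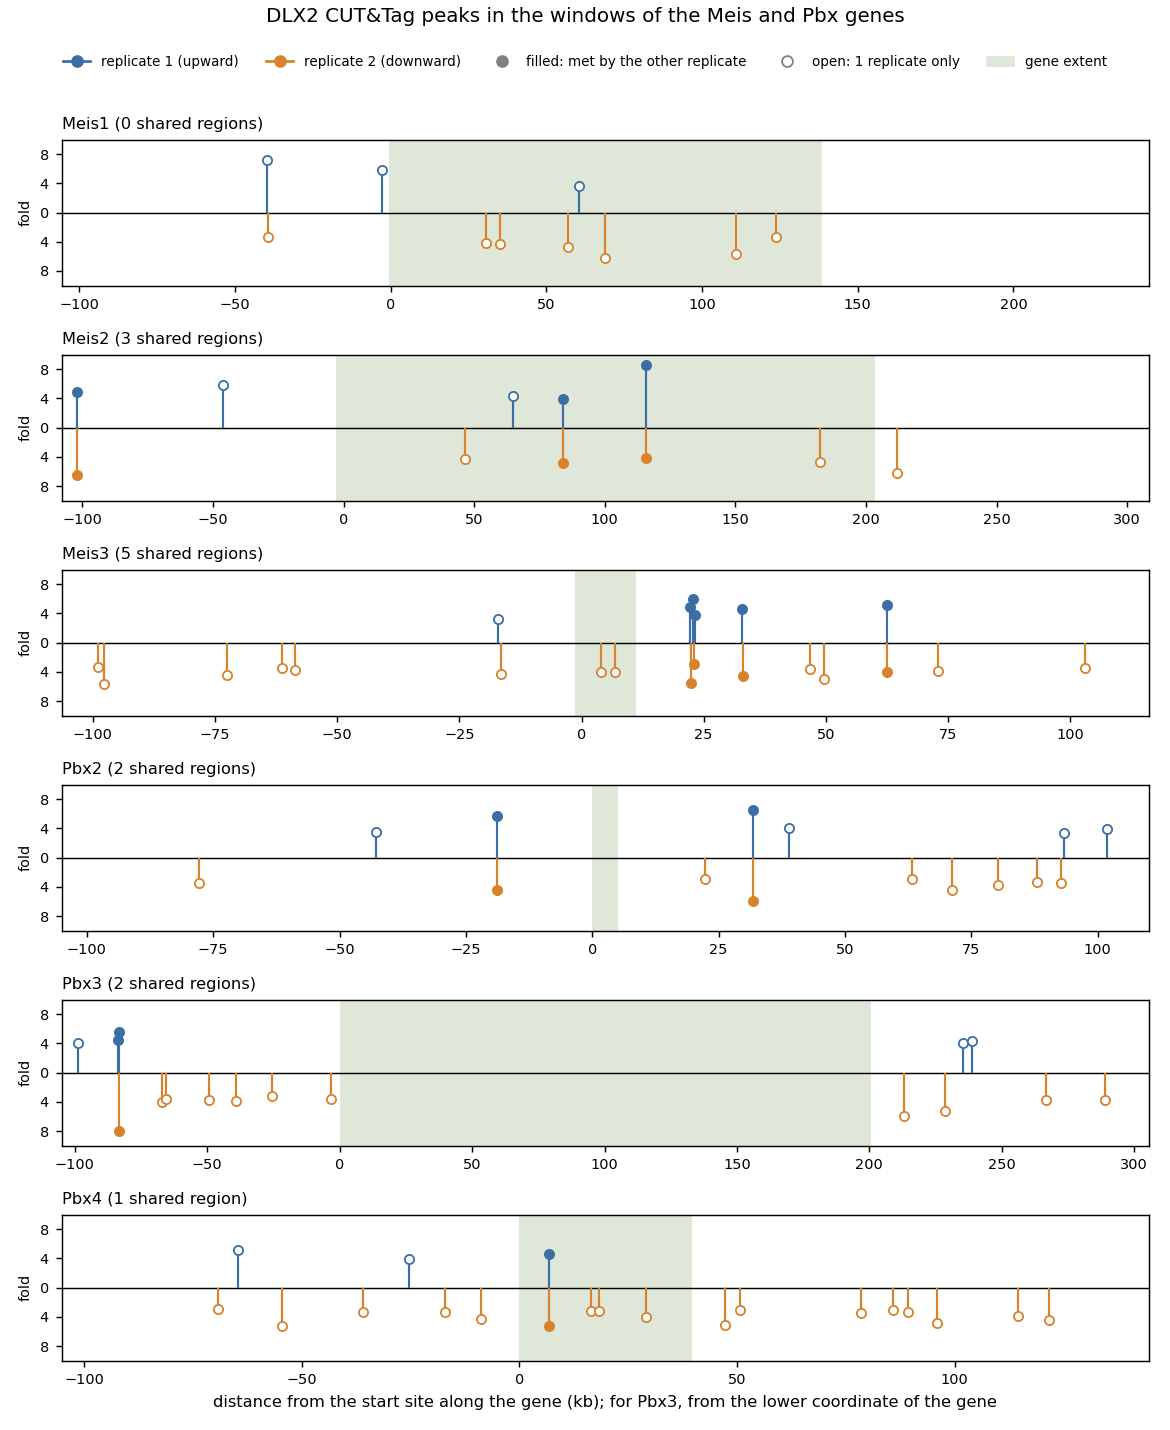
Peaks of replicate 1 (upward) and replicate 2 (downward) across each window, with fold enrichment as height and distance from the start site in kb along the gene (for *Pbx3*, from its lower coordinate). Filled points met a peak of the other replicate, shading marks the gene extent, and the extent of *Pbx3* holds 0 peaks.

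The start of each member was examined next. Start sites were known for 5 of the 6 genes, from the RefSeq promoter sequences of GRCm38.p6, and *Pbx3* was not matched. Within 2 kb of these start sites there were 0 peaks in replicate 1 and 0 in replicate 2. The share of all genes with a peak that near their start was not counted, so these zeros are a description only. The nearest peak lay 2.58 kb from the start of *Meis1*, 3.76 kb from *Meis3*, 6.89 kb from *Pbx4*, 18.7 kb from *Pbx2* and 46.2 kb from *Meis2*. The count for *Meis1* depends on the start used: its nearest peak, in replicate 1 at 19021550 to 19021688 with a fold of 5.77, lay 1.90 kb from the upstream end of the gene extent, within the limit of 2 kb. Of the 13 shared regions, 0 lay within 2 kb of any start site in that table, other genes included. Over the whole series, 5.19% of shared regions did so, a share at which 0 of 13 is not unusual. Of the peaks in the windows, 3 of 28 in replicate 1 and 8 of 66 in replicate 2 lay within 2 kb of any start site. The shares over all peaks were 6.06% and 7.20%.

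The sequence before the start is shown for *Meis2* and *Pbx4*, the members with a shared region inside the gene. Neither stretch met a peak, and the same held for the other members with a known start. Each sequence is given 5′ to 3′ on the strand of the gene. The first is chr2:116064620-116064869 on the minus strand and the second is chr8:69832374-69832623 on the plus strand, both in GRCm38.p6.
*Meis2*: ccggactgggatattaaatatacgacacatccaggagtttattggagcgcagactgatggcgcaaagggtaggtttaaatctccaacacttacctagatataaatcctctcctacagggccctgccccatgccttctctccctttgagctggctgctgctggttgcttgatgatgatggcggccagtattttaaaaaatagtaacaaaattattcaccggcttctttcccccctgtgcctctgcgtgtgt
*Pbx4*: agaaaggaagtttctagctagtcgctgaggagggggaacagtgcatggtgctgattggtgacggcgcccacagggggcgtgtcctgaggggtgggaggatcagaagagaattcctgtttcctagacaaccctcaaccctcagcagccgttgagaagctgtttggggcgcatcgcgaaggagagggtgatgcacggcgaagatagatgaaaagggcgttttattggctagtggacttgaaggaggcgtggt

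Motifs were searched on both strands of the RefSeq promoter sequences, which run from 250 bases before to 50 bases after the start. The letters searched were TGACAG for MEIS, TGATNNAT for PBX with HOX, TAATTA for a DLX-type homeodomain and TGATTGAC for PBX with MEIS. The last and the first can overlap in TGAC. The promoters of *Meis1*, *Meis2*, *Meis3*, *Pbx2* and *Pbx4* had 0 matches to any of the 4. Among all 32851 promoter sequences, TGACAG was found in 19.2%, TGATNNAT in 8.85%, TAATTA in 5.29% and TGATTGAC in 0.770%. No capitals therefore mark a motif in the sequences printed here.

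The promoter sequences also covered the whole of a pair of weak peaks in these windows, and they are shown because they are the peaks whose bases could be read. The first was a replicate 2 peak upstream of a *Dhx34* start in the *Meis3* window, chr7:16222151-16222274 (minus strand shown), with a fold of 3.61. The second was a replicate 2 peak inside *Cilp2* and beside the start of the lncRNA gene *Gm33746*, in the *Pbx4* window, chr8:69883282-69883421 (plus strand shown), with a fold of 3.03. Replicate 1 had no peak at either place, and neither sequence matched any of the 4 motifs.
Peak at *Dhx34*: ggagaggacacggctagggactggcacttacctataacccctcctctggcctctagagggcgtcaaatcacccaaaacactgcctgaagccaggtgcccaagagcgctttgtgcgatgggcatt
Peak at *Gm33746*: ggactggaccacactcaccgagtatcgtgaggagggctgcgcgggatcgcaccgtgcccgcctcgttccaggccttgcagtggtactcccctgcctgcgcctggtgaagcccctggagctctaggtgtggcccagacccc

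*Meis2* (gene ID 17536), required in cranial neural crest, lies on chromosome 2 at 115861264 to 116067537 in mm10 and spans 206 kb. Its window had 5 peaks in replicate 1 and 6 in replicate 2, the closest numbers of any member. A first shared region lay inside the gene at 115948691 to 115948866, 116 kb downstream of the start. Its fold was 8.62 in replicate 1, the highest of the 28 replicate 1 peaks in the 6 windows, and 4.13 in replicate 2. It rested on 13 fragments in replicate 1 and 9 in replicate 2, so the shallower library had more fragments there. A second lay inside the gene at 115980662 to 115981015, 83.6 kb from the start, with folds of 3.87 and 4.82 and summits 13 bp apart. These regions are separated by 31.8 kb of the gene. The third lay upstream at 116166523 to 116166930, 99.0 kb from the gene and in no annotated gene, with folds of 4.82 and 6.45. It stood 0.607 kb inside the edge of the window, and with a flank of 50 kb *Meis2* had 2 shared regions. Peaks of a single replicate were highest upstream in replicate 1 (fold 5.77, 43.3 kb from the gene) and downstream in replicate 2 (fold 6.16, 8.48 kb from the gene).

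*Meis1* (gene ID 17268), known from blood stem cells and leukaemia, lies on chromosome 11 at 18880428 to 19019651 and spans 139 kb. It was the member with peaks in both replicates but 0 shared regions. Replicate 1 had 3 peaks in the window and replicate 2 had 7. Inside the gene, replicate 2 had 6 peaks and replicate 1 had 1, and none of them met. The highest peak of replicate 1 had a fold of 7.21 on 9 fragments and lay 39.1 kb upstream at 19058764 to 19059052. A replicate 2 peak with a fold of 3.33 ended 407 bp away from it, at 19058209 to 19058356, so the replicates came close there without meeting. The summits of this pair were 0.533 kb apart. The highest peak of replicate 2, with a fold of 6.19 on 12 fragments, lay inside the gene at 18949838 to 18950258. The shared region nearest to *Meis1* was 165 kb from the gene, outside the window, with folds of 4.33 and 4.43.

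*Meis3* (gene ID 17537), which acts in hindbrain and gut nerve development, is a short gene of 12.499 kb on chromosome 7 at 16174012 to 16186510. Its window also holds 9 other protein-coding genes. Replicate 1 listed 6 peaks there and replicate 2 listed 16. The 5 shared regions were the most of the 6 windows, but all 5 lay downstream of *Meis3* in other genes. Of these, 4 lay in *Dhx34*, an RNA helicase gene with a role in mRNA decay, and 1 lay in *C5ar2*, a receptor gene of the complement system. The first 3 in *Dhx34* fell within 1118 bp, from 16197539 to 16198656, and 2 of them came from 1 broad replicate 2 peak. Their folds were 4.81, 6.03 and 3.82 in replicate 1. The broad replicate 2 peak had a fold of 5.58 on 24 fragments, and the other had a fold of 2.97, the lowest among the shared regions. The local background there was also high, at 1.29 to 1.35 fragments in replicate 1 and 3.48 to 3.72 in replicate 2, against medians of 0.484 and 1.29 over all peaks. Its part in these peaks was not tested. The last region in *Dhx34*, at 16208265 to 16208480, had nearly equal folds, 4.56 and 4.52. The region in *C5ar2*, at 16237810 to 16237938, reached 5.12 in replicate 1 against 4.04 in replicate 2. Inside *Meis3*, replicate 2 had 2 peaks and replicate 1 had 0. Outside the shared regions, the highest peak was at a fold of 3.22 in replicate 1, within *Slc8a2*, and at 5.65 in replicate 2, within *Zfp541*.

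*Pbx2* (gene ID 18515), a broadly expressed member, spans 5.14 kb on chromosome 17 at 34592259 to 34597400, in a window with 12 other protein-coding genes. The window had 6 peaks in replicate 1 and 9 in replicate 2, and none lay in the gene. A shared region at 34573201 to 34573448, 18.8 kb upstream, fell inside *Notch4*, which encodes a Notch receptor. Its folds were 5.73 and 4.44, over a local background of 1.095 and 3.05 fragments. The other, at 34624055 to 34624142 and 26.7 kb downstream, fell inside *Ppt2*, a lysosomal thioesterase gene. It had the highest lower fold of the 13 regions, with 6.56 in replicate 1 and 5.96 in replicate 2, and its summits were 13 bp apart. Of all shared regions of the series, 14.7% had a lower fold at or above this one. Peaks of a single replicate in this window had folds up to 4.03 in replicate 1 and 4.37 in replicate 2. The medians over all peaks were 4.33 and 4.12.

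*Pbx3* (gene ID 18516), which is needed for control of breathing in newborn mice, spans 201 kb on chromosome 2 at 34171457 to 34372045. The gene held 0 peaks in replicate 1 and 0 in replicate 2. The stretch without a peak in either list ran for 216 kb, from 3.27 kb below the gene to 12.4 kb above it. Of the 988 protein-coding genes at least as long, 38 held no peak of either replicate, or 3.85%. The flanks were not empty, with 5 peaks in replicate 1 and 11 in replicate 2. Both shared regions lay 83.2 to 83.5 kb below the lower coordinate of the gene, inside *C230014O12Rik*. They fell within 545 bp, from 34087727 to 34088271, and came from the same replicate 2 peak. That peak had the highest fold of replicate 2 in the 6 windows, 7.99 on 24 fragments, and a −log10 q of 13.2. The corresponding peaks of replicate 1 had folds of 4.50 and 5.64 on 7 and 9 fragments. Among peaks of a single replicate, the highest had a fold of 4.33 in replicate 1, within *Mapkap1*, and 5.87 in replicate 2, between the genes.

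*Pbx4* (gene ID 80720), expressed mainly in the testis, spans 39.8 kb on chromosome 8 at 69832476 to 69872292. Its window holds 10 other protein-coding genes. The replicates differed most here, with 3 peaks in replicate 1 and 17 in replicate 2. Inside the gene, replicate 1 had 1 peak and replicate 2 had 4. They met at 69839531 to 69839686, 6.91 kb downstream of the start, with a fold of 4.59 on 7 fragments in replicate 1 and 5.26 on 15 fragments in replicate 2. The summits were 15 bp apart, and this was the shared region closest to the start of any member. The other 16 replicate 2 peaks had no counterpart, and the highest of them had a fold of 5.24. The highest unmatched peak of replicate 1 had a fold of 5.11 and lay in *Zfp866*.

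**Figure D2:**
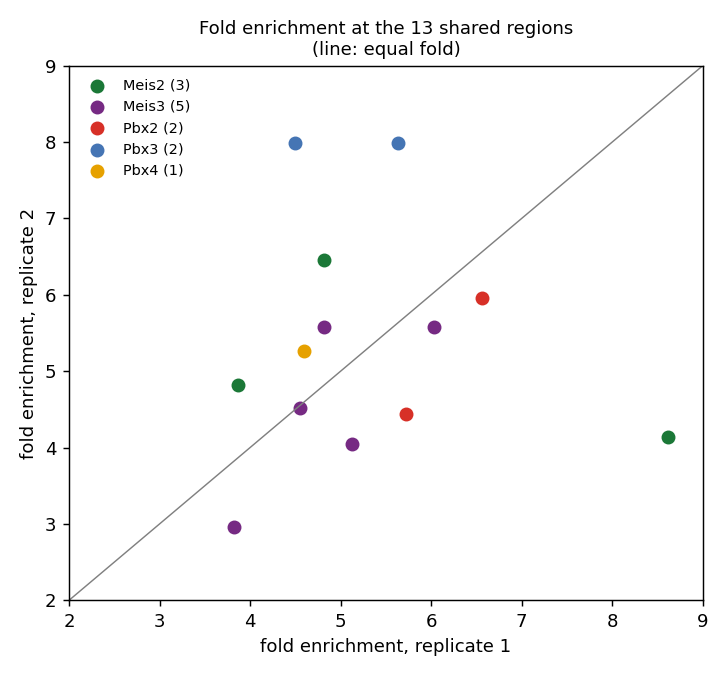
Fold enrichment of the 13 shared regions in replicate 1 (x axis) and replicate 2 (y axis), coloured by gene, with the line of equal fold. Folds span 3.82 to 8.62 in replicate 1 and 2.97 to 7.99 in replicate 2, with 7 points below the line and 6 above it.

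The shared regions of these genes were moderate in height. The median of the lower fold was 4.52 over the 13 regions and 4.51 over all 10921 shared regions. Replicate 1 was higher at 7 of the 13 and replicate 2 at 6. Both folds reached 5 at 3 regions, in *Dhx34*, in *Ppt2* and in *C230014O12Rik*. Both −log10 q values reached 5 at 2 of them, in *Dhx34* and in *Ppt2*, so no region inside a *Meis* or *Pbx* gene did so. The median shared region was 168 bp long, with a range of 70 to 408 bp. Summits of the replicates lay at most 200 bp apart at 11 of the 13.

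The number of peaks was then related to the length searched. The windows together covered 1804 kb and held 28 peaks in replicate 1 and 66 in replicate 2, a mean of 47.0 ± 26.9 (SD, n = 2). At least 1 peak lay in each of the 6 windows in either replicate, as it did for 83.1% of all protein-coding genes in replicate 1 and 91.7% in replicate 2. Peak density was 1.55 per 100 kb in replicate 1 (exact Poisson 95% interval 1.03 to 2.24) and 3.66 in replicate 2 (interval 2.83 to 4.66). Shared regions had a density of 0.721 per 100 kb (interval 0.384 to 1.23). Summed over the windows of all protein-coding genes, the densities were 1.48, 3.52 and 0.543 per 100 kb in the same order, and each lay within the interval of the 6 genes. Intervals cover counting error only, and peaks that cluster make them too narrow. Over chromosomes 1 to 19 and X as a whole, shared regions had a density of 0.423 per 100 kb.

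Inside the 6 genes, which make up 33.5% of the length searched, the density was lower than in the flanks. It was 0.828 per 100 kb inside the genes and 1.92 in the flanks in replicate 1, and 2.65 against 4.17 in replicate 2. For shared regions it was 0.497 inside (interval 0.103 to 1.45) and 0.833 in the flanks (interval 0.3996 to 1.53). The intervals overlap in each of these pairs. Over all protein-coding genes, the densities inside and in the flanks were 1.39 and 1.503 in replicate 1, 3.19 and 3.60 in replicate 2, and 0.497 and 0.554 for shared regions.

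**Figure D3:**
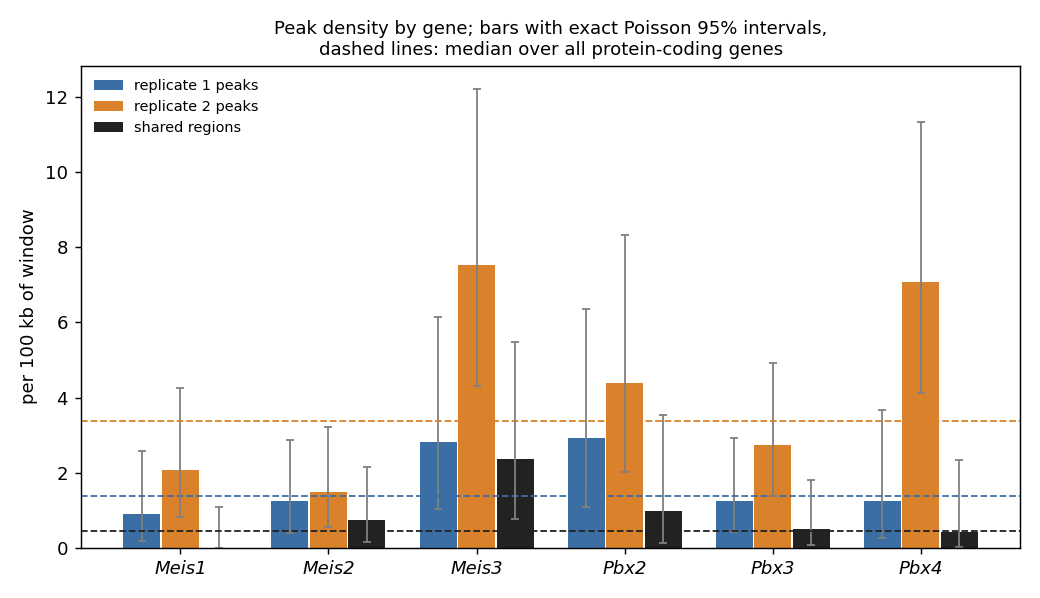
Peaks of each replicate and shared regions per 100 kb of window for each gene, with exact Poisson 95% intervals as error bars and the median over all protein-coding genes as dashed lines. *Meis3* and *Pbx4* stand highest in replicate 2, at 7.53 and 7.09 per 100 kb, and *Meis1* has no shared region.

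The genes were ordered by the density of shared regions. *Meis3* came first with 2.35 per 100 kb, followed by *Pbx2* with 0.975, *Meis2* with 0.738, *Pbx3* with 0.499, *Pbx4* with 0.417 and *Meis1* with 0. The intervals of all 6 overlap, from 0.764 to 5.49 for *Meis3* to an upper bound of 1.09 for *Meis1*, so the order is not separated by counting error. Of all protein-coding genes, 2.15% had a density at or above that of *Meis3*, and 19.4% at or above that of *Pbx2*. The value of *Meis3* rests in part on clustered regions. With regions at most 1 kb apart joined, a setting added after the data were seen, its number fell from 5 to 3. That of *Pbx3* fell from 2 to 1.

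In replicate 2, *Meis3* (7.53 per 100 kb, interval 4.30 to 12.2) and *Pbx4* (7.09, interval 4.13 to 11.3) lay above *Meis2* (1.48, interval 0.542 to 3.21) without overlap. *Meis3* also lay just clear of *Meis1* (2.06, interval 0.830 to 4.25). These intervals are from 1 library, and clustered peaks make them too narrow. Of all protein-coding genes, 8.22% had a replicate 2 density at or above that of *Meis3* and 10.9% at or above that of *Pbx4*. The shares were 65.6% for *Meis1* and 73.7% for *Meis2*. In replicate 1 the intervals of all genes overlap, with values from 0.884 for *Meis1* to 2.92 for *Pbx2*. The number of neighbouring genes differed between the members. *Meis3*, *Pbx2* and *Pbx4* have 9 to 12 other protein-coding genes in the window, and their replicate 2 densities ran from 4.39 to 7.53 per 100 kb. *Meis1*, *Meis2* and *Pbx3* have 0 or 1 and replicate 2 densities from 1.48 to 2.75. In replicate 1 the same order held, but only just, as *Pbx4* (1.251 per 100 kb) stood beside *Pbx3* (1.248) and *Meis2* (1.231). For shared regions the split did not hold: *Pbx4* (0.417) lay below both *Meis2* (0.738) and *Pbx3* (0.499). Across all 21761 protein-coding genes, whose windows overlap, the number of neighbours and the density had a Spearman's rho of 0.254 in replicate 1, 0.369 in replicate 2 and 0.150 for shared regions. The part of neighbouring genes in the members' values was not tested.

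**Figure D4:**
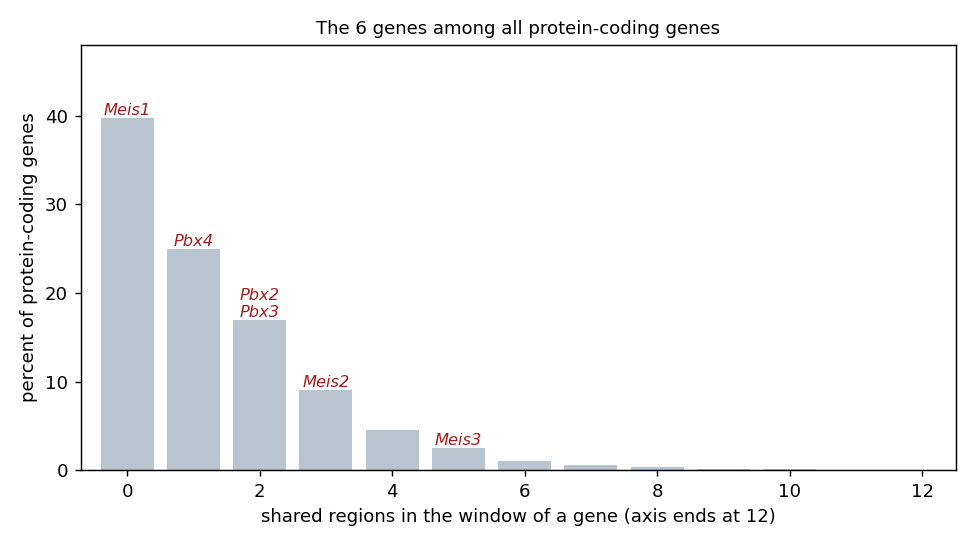
Percent of protein-coding genes (y axis) by the number of shared regions in the window (x axis), with the 6 genes named above their number. *Meis1* stands at 0, *Pbx4* at 1, *Pbx2* and *Pbx3* at 2, *Meis2* at 3 and *Meis3* at 5.

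Recurrence between the replicates was examined last. Among the 28 peaks that replicate 1 placed in the windows, 13 overlapped a peak of replicate 2, or 46.4% (95% Wilson interval 29.5 to 64.2%), against 38.9% of all replicate 1 peaks. In the other direction, 11 of 66 were met, or 16.7% (interval 9.57 to 27.4%), against 17.2% of all replicate 2 peaks. Both shares of all peaks lie within the intervals. Peaks that met rested on a median of 9 fragments in replicate 1 and 14 in replicate 2, and the others on 5 and 10. At this depth, a site listed in 1 replicate cannot be called absent from the other.

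**Figure D5:**
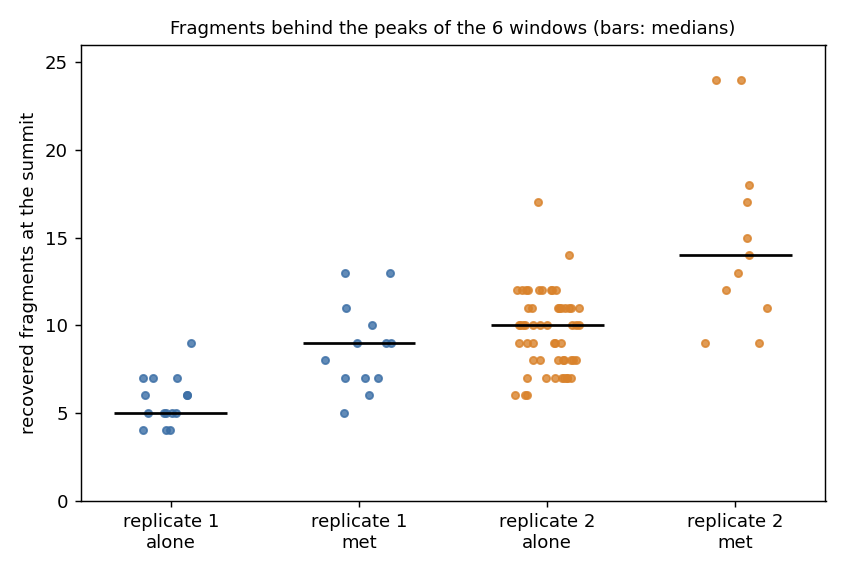
Recovered fragments at the summit (y axis) for each peak in the 6 windows, by replicate and by whether it met a peak of the other replicate, with medians as bars. The medians are 5 and 9 in replicate 1 and 10 and 14 in replicate 2, and the groups overlap in each replicate.

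The other TALE homeobox genes were counted in windows of the same kind. Of 11 TALE genes of the *Pknox*, *Tgif*, *Mkx* and *Irx* families, 8 had a shared region, against 60.3% of all protein-coding genes. They had 15 in all and a median density of 0.476 per 100 kb, against 0.619 for the 6 *Meis* and *Pbx* genes and 0.441 for all protein-coding genes. *Irx2* had 4 and *Irx5* had 3, and the numbers ran from 0 to 4.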

How the data were processed

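DLX2 CUT&Tag peaks of 2 wildtype E12.5 samples were used. Per the submitters' processing notes, Trim Galore 0.4.5, Bowtie 1.1.2 and MACS2 2.2.7 were used with build mm10 (GRCm38). The methods of the study instead name Trim Galore 0.6.5 and bowtie2 2.4.2. The labels describe sonicated chromatin, the methods transposase tagging. Peaks were called per sample, and neither list holds a peak with a q above 0.1.

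The deposited fold is a ratio of each summit to its local background. The deposited −log10 p and −log10 q are those of the peak caller, and the deposited score is the whole part of 10 times the −log10 q. The summit position was also deposited.

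Fragments were recovered from fold and −log10 p as the whole number whose Poisson upper tail matched within 0.001, found for 100% of peaks in each replicate. Shared regions needed 1 bp of overlap. Genes starting before position 3000000 were left out. Tests across groups were not possible with 1 group, so all results are descriptions. The overlap and recovery functions were tested on simulated data. The sequence of most peaks was not analysed here, because no genome was used. The planned motif search in promoters with a peak within 2 kb had none to search, so the promoters of the members were searched instead.

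The members, lists and tests were chosen with earlier results of these data known. Named items were the 6 genes, each shared region, the highest single-replicate peak by gene and replicate, and other TALE genes with at least 3 shared regions or with no peak in either replicate (none). A further list of genes is not reported here. Other genes are named where they hold a region or peak described. Alternatives were a −log10 q or fold of at least 5, 50% mutual overlap, summits at most 200 bp apart, the gene alone, flanks of 50, 200 and 500 kb, members as nearest gene and each replicate alone. The analysis ran in Python 3.11.15 with scipy 1.17.1, pandas 2.3.3, numpy 2.4.6 and, for figures, matplotlib 3.10.9. Replicates were numbered in accession order.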

Additional observations from a re-analysis of the deposited data

How the results depend on the processing

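Of 64 alternative values for the windows together, 32 stayed within 1.5 times the count or within the interval of the value reported. The 13 shared regions, at 0.721 per 100 kb in 5 windows, became 2 (0.111 per 100 kb, 2 windows) at a −log10 q of at least 5 and 3 (0.166 per 100 kb, 3 windows) at a fold of at least 5. Of all protein-coding genes, 14.9% and 28.6% had a shared region in the window under these filters, against 60.3% without them. The peaks fell to 4 and 11 (replicates 1 and 2) under the first filter and to 10 and 14 under the second. With 50% of each peak shared, 6 were left (0.333 per 100 kb), and the shares met were 21.4% and 9.09%. The gene alone left 3 in 2 windows, with 5 and 16 peaks. A flank of 50 kb left 41 replicate 2 peaks. Flanks of 200 and 500 kb gave 22 and 45 shared regions, from 46 and 116 peaks and from 102 and 235 peaks. Requiring a member as the nearest protein-coding gene left 6 (0.333 per 100 kb) in 3 windows, *Meis2*, *Pbx3* and *Pbx4*. The filters, overlaps and window lengths change these numbers by construction. Leaving out either replicate gave 28 to 66 regions and 1.55 to 3.66 per 100 kb, since unmatched peaks then enter. Of 72 alternative counts for single genes, 19 were higher and 22 lower by more than 1.5 times, counting moves from or to 0. No paired analysis was possible because there is 1 group. With no control library, sites cannot be separated from background common to both libraries.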

Other observations

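Wider windows hold more shared regions by construction, and the density over the 6 windows was 0.732 per 100 kb with a flank of 200 kb and 0.681 with 500 kb, against 0.721 with 100 kb. With a flank of 200 kb, the *Pbx3* window held 6, *Meis3* held 8, *Pbx2* and *Meis2* held 3 each, and *Pbx4* and *Meis1* held 1 each, and 75.4% of all protein-coding genes had a shared region. With a flank of 500 kb, *Pbx2* had 13, *Meis3* had 10, *Pbx3* had 9, *Pbx4* had 6, *Meis2* had 4 and *Meis1* had 3. At that distance 88.3% of all protein-coding genes had a shared region.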
